A study of Mus musculus with 32 samples.

Results

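This report describes the mRNA of the liver cell fraction labelled Ito, taken from mice that carried colorectal cancer (CRC) metastases in the liver (TME Ito) and from control mice (control Ito). Members were chosen by the sample titles, which gave 4 TME Ito and 4 control Ito samples, 8 of the 32 samples of the series. All animals were male Balb/c mice of 6 to 8 weeks. TME mice had received 2000000 C26 cells, a mouse colon carcinoma line of the same strain, in the spleen, and control mice had been inoculated with PBS. After 14 days the livers were digested with collagenase, the fraction was taken from the interface of a 33% over 50% Percoll gradient, Kupffer cells were removed by letting them adhere, and the cells were used within 24 h of culture. The fraction was therefore defined by density and adherence and not by a sort on a marker, and all samples had been in culture. The study's methods give 4 biological replicates, and neither they nor the labels say whether a replicate was a single mouse or a pool.

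Ito cells, also called hepatic stellate cells, lie between the hepatocytes and the sinusoidal endothelium and store vitamin A as retinyl esters in lipid droplets. In injured or metastatic liver they lose these droplets, take on a contractile phenotype with smooth muscle actin and secrete collagen and other matrix proteins. *Lrat*, which makes retinyl esters, *Reln*, a secreted glycoprotein, and *Des*, the intermediate filament protein desmin, are used to mark them in mouse liver.

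Each array carried a control sample labelled with Cy3 (green) and the TME sample of the same number labelled with Cy5 (red), so that dye and condition cannot be told apart on any array. Levels are given as log2 of the normalized intensity, on which 1 unit is a factor of 2. The share of spots flagged as well above background ran from 43.8 to 53.1% over the 8 channels and was larger in the Cy3 than in the Cy5 channel on each of the 4 arrays. No spot was saturated, and the number of arrays limits the precision. Bright probes are those well above background on all 8 channels, of which there were 21215 among 55681.

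Array 4 went against its labels. Over 21154 bright probes, the levels of the channel labelled control on array 4 correlated at 0.996 with TME Ito 1 and 0.993 with TME Ito 3, but at 0.957 to 0.966 with control Ito 1 to 3. The levels of the channel labelled TME on array 4 correlated at 0.987 to 0.994 with control Ito 1 to 3, and at 0.968 and 0.970 with TME Ito 1 and 3. The differences between TME and control on array 4 correlated at -0.86 with those of array 1 and -0.80 with those of array 3, whereas arrays 1 and 3 correlated at 0.88. Over all 55561 complete probes these values were -0.51, -0.45 and 0.63. They are correlations across probes, which share a sample and are not replicates. TME Ito 2 stood apart in another way. Its levels correlated at 0.906 to 0.921 with every other channel of the fraction, and the differences of array 2 correlated at only 0.21 and 0.26 with those of arrays 1 and 3. The labels give the same dyes for all arrays, so the samples were kept under their labels. Results are given for arrays 1 to 3 unless all 4 arrays are named, and counts over all probes are given for both. The values of array 4 are printed as "the channel labelled control" and "the channel labelled TME". What sets array 4 and TME Ito 2 apart was not tested.

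**Figure D1:**
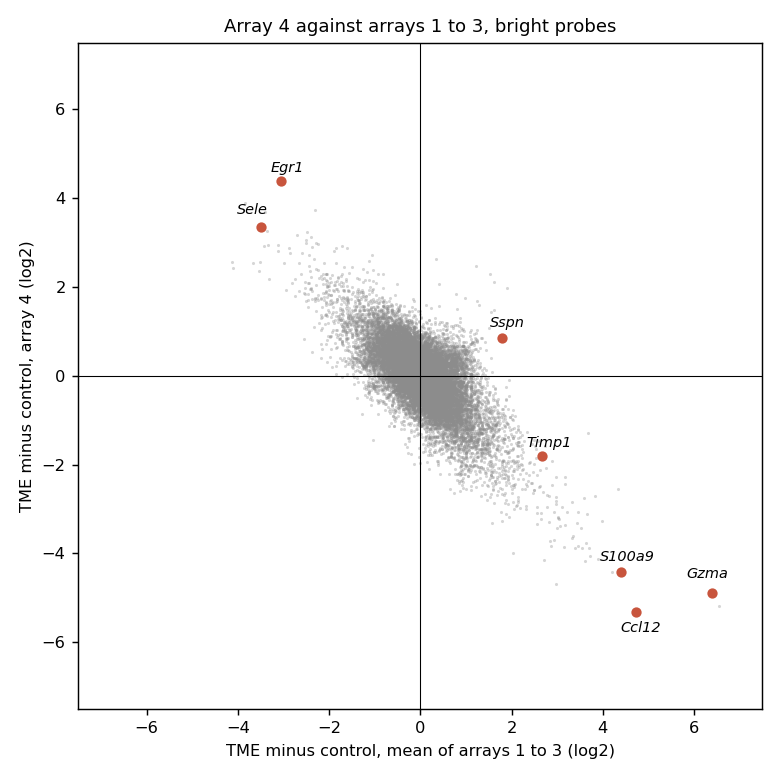
Each point is a bright probe, with the mean difference between TME and control on arrays 1 to 3 on the horizontal axis and the difference on array 4 on the vertical axis, both in log2 units. Most probes that were far from 0 lie in the upper left and lower right quadrants, and the correlation over the 21211 probes was -0.70. Red points mark genes named in the text, among which Sspn was higher in TME on all 4 arrays.

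The defining markers were weak in the samples labelled Ito. *Lrat* was well above background in 2 of 4 control and 0 of 4 TME channels, at 4.13 ± 0.34 (SD, n = 4) in control Ito, 3.44 ± 0.31 in control endothelial and 3.58 ± 0.59 in control Kupffer cells of the same study. *Reln* was detected in 4 of 4 control channels and 2 of 4 TME channels. Its level was 5.56 ± 0.68 in control Ito, 5.86 ± 0.16 in control endothelial and 4.60 ± 1.04 in control Kupffer cells. The value in control Ito includes array 4, at 4.54. On arrays 1 to 3 control Ito was at 5.90 ± 0.06, beside 5.66, 6.04 and 5.92 in control endothelial cells. *Des* was detected in all 8 channels, at 5.72 ± 0.37 in control Ito, 7.65 ± 0.61 in control endothelial and 5.76 ± 0.54 in control Kupffer cells. For each of the 3 markers the control Ito channels overlapped those of at least 1 of the other liver fractions. Of a list of 34 stellate genes, 33 were detected on at least 3 control channels of arrays 1 to 3, and of these 26 were highest in the endothelial fraction and 6 in the fraction labelled Ito. Of 53 detected hepatocyte genes, 50 were highest in the fraction labelled Ito, by a median of 2.26 log2 units over endothelial and 1.96 over Kupffer cells. Of 12 detected erythroid and platelet genes, 9 were highest there too. The endothelial list was highest in endothelial cells for 25 of 36 genes and the Kupffer list in Kupffer cells for 26 of 35. The Kupffer arrays lay on another slide, so slide and fraction cannot be told apart in levels set against Kupffer cells. At the mRNA level these markers thus did not set the samples labelled Ito apart, against their label, and they are called the fraction labelled Ito below. The study assessed purity by staining of protein markers, which was not analysed here. Since these are bulk samples, fewer cells of a type and less RNA per cell cannot be told apart in any result that follows.

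On arrays 1 to 3, 2321 probes were higher in TME (4.17% of 55681) and 2182 lower (3.92%) at an adjusted p under 0.05 by limma, in a fit of all groups of the series. On all 4 arrays, 156 were higher (0.280%) and 11 lower (0.0198%). The stricter limit, a change of 4-fold or more with an adjusted p under 0.001, left 164 higher (0.295%) and 63 lower (0.113%) on arrays 1 to 3, and 53 (0.0952%) and 0 on all 4 arrays. With the array as a block, the counts on all 4 arrays were 292 and 25. Among bright probes, 1345 were higher and 1380 lower on arrays 1 to 3, and 12 and 0 on all 4 arrays, where 1252 and 1009 had an unadjusted p under 0.05. Array 4 ran opposite for 71.3% of all 21211 bright probes, for 75.9% of the 2321 probes and for 93.6% of the 2182. Among the bright probes called, which were chosen on arrays 1 to 3, it ran opposite for 95.6% of the 1345 and 98.3% of the 1380. Turning the sign of array 4, an alternative chosen after seeing the data, gave 2437 higher and 2690 lower probes. Leaving out array 2, on which TME Ito stood apart, left 1301 higher and 829 lower on arrays 1 and 3.

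Among the bright called genes with the largest rises on arrays 1 to 3 were *Gzma*, *Gzmb*, *Gzmc*, *Ccl12*, *Ccl8*, *S100a4*, *S100a8*, *S100a9*, *Sirpb1a*, *Sirpb1b*, *Fgl1*, *Spn* and *Crct1*. Those with the largest falls were *Cxcl2*, *Lama4*, *Sele*, *Cd207*, *Car3*, *Lce1d*, *Csf2*, *Esm1*, *Gm7120*, *Egr1*, *Cyp1a1*, *Adamts4*, *Niacr1*, *Lyve1* and *Mup21*. The 15 bright genes with the largest rise rose by 3.33 to 6.40 log2 units and the 15 with the largest fall fell by 2.51 to 3.53. All 30 were chosen for a large change in the same direction on arrays 1 to 3. That their 3 TME and 3 control channels did not overlap there follows largely from this choice. For all 30 array 4 ran the other way. On all 4 arrays the smallest adjusted p among them was 0.312 (*Niacr1*, a receptor for nicotinic acid), so none of the 30 was called there. Of the 728 probes in the 25 gene lists described below, limma called 1 higher (*Brca1*) and 0 lower on all 4 arrays, where 50 and 31 had an unadjusted p under 0.05. When 1 of arrays 1 to 3 was left out, *Ccl12*, *Ccl8*, *Cxcl2*, *Csf2*, *Egr1*, *Lyve1*, *Fgl1* and *S100a4* were among the leading genes that lost the call, with a highest adjusted p of 0.182 for *Csf2* and *Ccl8*.

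*Gzma*, which encodes the granule protease granzyme A of cytotoxic T and NK cells, had the largest rise among the bright called genes. Its level was 7.09, 7.37 and 6.81 in control Ito 1 to 3 and 13.10, 14.46 and 12.92 in TME Ito 1 to 3. On array 4 it was 13.07 in the channel labelled control and 8.17 in the channel labelled TME. The level in the channel labelled control on array 4 thus lay among the TME channels of arrays 1 to 3. The rise on arrays 1 to 3 was 84.6-fold (log2 difference 6.40 ± 0.70 SE, adjusted p = 2.54e-05). *Gzmb*, granzyme B, was at 8.33, 7.16 and 7.92 in control and 11.79, 11.22 and 11.39 in TME, and at 11.69 and 8.58 in the channels of array 4 labelled control and TME. Its rise was 12.6-fold (3.66 ± 0.46, adjusted p = 9.85e-05). *Nkg7*, a granule membrane protein of the same cells, rose 2.78-fold and *Prf1*, perforin, 2.18-fold. A second probe of *Nkg7* rose by 3.82 on the log2 scale (adjusted p = 0.000386), against 1.48 for the probe given. *Gzma*, *Gzmb* and *Nkg7* remained called when any of arrays 1, 2 and 3 was left out, with a highest adjusted p of 0.0213 for *Gzmb*. *Prf1* did not, with an adjusted p of 0.0944 without array 1.

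Of 30 T, NK and B cell genes, 13 rose and 0 fell on arrays 1 to 3, beside 4.17% of all probes that rose, and the list's median difference was 1.10 against 0.00 over all probes. On array 4 the median was -1.11. Without array 2, 12 rose. Besides the genes above, the T cell receptor subunits *Cd3d* and *Cd3g* and the co-receptor chains *Cd8a* and *Cd8b1* were among the 13. *Cd3d* was at 4.82, 3.29 and 3.83 in control and 8.97, 8.52 and 8.62 in TME. *Cd8a* was at 1.79 to 2.50 in control and 5.32 to 6.94 in TME. It was well above background in only 1 of 4 control channels, as were *Cd8b1*, *Ltf*, *Chi3l3* and *Ifng* below, and no fold is given for these genes. The cytokine interferon gamma, *Ifng*, from the cytokine list, was at 1.78 to 3.02 in control and 8.87, 6.79 and 8.67 in TME, with 9.19 and 2.93 in the channels of array 4 labelled control and TME. The mean level over this list was 5.59 to 5.80 in control Ito 1 to 3 and 7.49, 7.73 and 7.23 in TME Ito 1 to 3, so the groups did not overlap.

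Of 26 neutrophil genes, 11 rose and 0 fell, beside 4.17 and 3.92% of all probes, and 8 rose without array 2. Of the 26, 9 were bright. The median difference was 1.99 on arrays 1 to 3, which became 0.79 after normexp with quantile and 0.72 with loess normalization, and -1.82 on array 4. *S100a9* and *S100a8* encode the subunits of calprotectin, the main cytosolic protein of neutrophils. *S100a9* was at 8.53, 8.07 and 8.05 in control and 13.02, 12.53 and 12.29 in TME, and at 13.22 and 8.80 in the channels of array 4 labelled control and TME. It rose 21.1-fold (4.40 ± 0.29, adjusted p = 1.26e-07). *S100a8* was at 8.56, 8.48 and 8.40 in control and 12.12, 11.87 and 11.43 in TME, and rose 10.1-fold (3.33 ± 0.32, adjusted p = 6.12e-06). Both remained called with any of the 3 arrays left out. *Camp*, the cathelicidin of specific granules, rose 7.81-fold, and *Ly6g*, the surface marker of mouse neutrophils, rose 4.00-fold (adjusted p = 0.00508). *Ltf*, lactoferrin, was at 1.95, 2.90 and 1.97 in control and 6.76, 10.20 and 5.88 in TME. TME Ito 2 was thus the highest for this granule gene and, at 6.45, the lowest TME channel of the 3 for *Ly6g*. Of 14 S100 genes, 4 rose, namely *S100a8*, *S100a9*, *S100a4* (10.1-fold) and *S100a6* (9.05-fold).

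The promoters of *S100a8* and *S100a9* are shown because the genes are neighbours that moved together, and those of *Gzmb* and *Sele*, a rise and a fall, for comparison. The stretches are the 250 bases before the start site in RefSeq's annotation of GRCm38.p6, written 5′ to 3′ on the gene's strand, which is plus for *S100a8* (chr3:90668821-90669070) and *Sele* (chr1:164047984-164048233) and minus for *S100a9* (chr3:90695722-90695971) and *Gzmb* (chr14:56262335-56262584). Capitals in the S100 promoters mark TTNNGNAA, a core of the C/EBP motif, and capitals in the other promoters mark TGANTCA, the AP-1 motif, both searched on both strands.
S100a8: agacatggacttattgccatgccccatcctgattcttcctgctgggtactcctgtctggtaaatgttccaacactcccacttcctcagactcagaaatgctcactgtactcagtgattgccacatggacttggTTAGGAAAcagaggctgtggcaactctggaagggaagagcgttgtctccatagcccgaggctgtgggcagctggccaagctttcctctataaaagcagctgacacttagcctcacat
S100a9: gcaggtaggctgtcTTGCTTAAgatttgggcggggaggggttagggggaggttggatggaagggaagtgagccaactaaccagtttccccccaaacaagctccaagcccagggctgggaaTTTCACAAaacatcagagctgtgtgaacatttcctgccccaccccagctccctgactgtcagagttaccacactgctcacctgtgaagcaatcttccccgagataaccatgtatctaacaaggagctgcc
Gzmb: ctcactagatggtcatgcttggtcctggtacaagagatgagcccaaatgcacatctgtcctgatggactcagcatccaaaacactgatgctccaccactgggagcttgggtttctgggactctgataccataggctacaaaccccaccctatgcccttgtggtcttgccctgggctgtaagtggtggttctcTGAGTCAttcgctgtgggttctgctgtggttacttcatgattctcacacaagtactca
Sele: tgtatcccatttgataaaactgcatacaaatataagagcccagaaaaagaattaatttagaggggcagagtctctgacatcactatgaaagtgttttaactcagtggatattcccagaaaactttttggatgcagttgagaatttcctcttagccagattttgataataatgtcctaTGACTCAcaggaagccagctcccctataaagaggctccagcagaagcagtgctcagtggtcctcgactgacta
TTNNGNAA occurred in the same stretch of 36.8% of all 32851 promoters of the table and TGANTCA in 6.75%. Promoters were matched for 10 of the 11 neutrophil genes that rose, and 7 of the 10 held TTNNGNAA, as did 5 of 8 matched acute phase genes that rose, 1 of 8 matched immediate early and stress genes that fell, 4 of 7 sinusoidal endothelial genes that fell and 4 of 10 T, NK and B cell genes that rose. TGANTCA was held by 0 of 10, 2 of 8, 1 of 8, 2 of 7 and 1 of 10 of the same genes. A gene was counted if any of its promoters held the motif, whereas the shares of all promoters are over single promoters. The counts and the shares are therefore unlike measures. These are matches of letters in a window and no measure of binding.

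**Figure D2:**
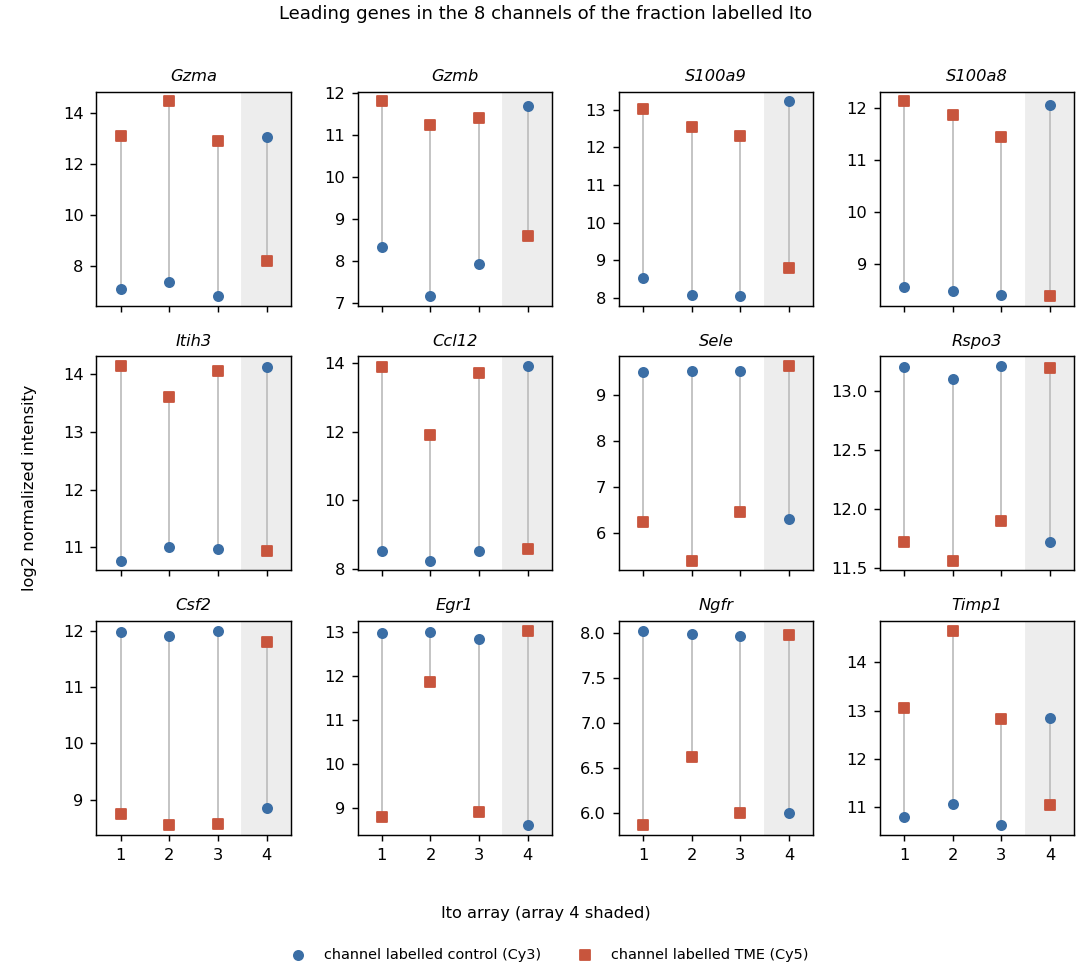
Level of 12 genes (log2 normalized intensity, vertical axes, which do not start at 0) in the channels labelled control and TME of each of the 4 Ito arrays, joined by a grey line per array, with array 4 shaded. In every panel the order of the 2 channels on array 4 is the reverse of that on arrays 1 to 3.

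Plasma proteins of the acute phase are made by hepatocytes in response to interleukin-6 and interleukin-1. Of 28 genes, 10 rose and 0 fell on arrays 1 to 3, beside 4.17 and 3.92% of all probes, and also 10 on arrays 1 and 3. The median difference was 1.84, and -2.07 on array 4. *Itih3*, a chain of inter-alpha-trypsin inhibitor, was at 10.77, 11.01 and 10.98 in control and 14.14, 13.60 and 14.05 in TME. On array 4 the channels labelled control and TME were at 14.12 and 10.93. It rose 8.06-fold (3.01 ± 0.30, adjusted p = 9.38e-06). *Orm2*, an orosomucoid, rose 7.63-fold, *Hpx*, the heme carrier hemopexin, 6.84-fold, and *Itih4* 6.45-fold. *Saa2*, serum amyloid A, was at 12.92 to 12.98 in control and at 14.69, 17.03 and 14.71 in TME, a 5.79-fold rise (adjusted p = 0.00292). *Itih3* and *Orm2* remained called with any of the 3 arrays left out, whereas *Hpx* and *Itih4* had adjusted p values of 0.0659 and 0.0643 without array 1. *Fgl1*, a hepatocyte protein outside this list, rose 12.2-fold.

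Of the 55 genes of the wider hepatocyte list, 3 rose and 3 fell beside 4.17 and 3.92% of all probes, and without array 2, 4 rose and 0 fell. Its median was -0.02 on arrays 1 to 3, turning to 0.04 and 0.08 after normexp with quantile or with loess. *Hpx* and *Hnf4a* were among those that rose, the last a hepatocyte transcription factor (1.14 ± 0.32 SE, adjusted p = 0.0348, and 0.0506 with the array as a block). *Mup3*, *Mup20* and *Ugt2b1* fell, the first a pair of major urinary proteins, whose near-identical copies can share signal, and the last a glucuronosyl transferase. *Mup20* was at 15.15, 15.26 and 15.01 in control and 13.01, 13.44 and 12.78 in TME, 4.17-fold lower. *Car3*, the carbonic anhydrase of hepatocytes and muscle, fell by 3.40 on the log2 scale, from 9.53, 9.62 and 9.55 to 5.57, 7.69 and 5.23. *Mup3*, *Mup20* and *Car3* also fell in endothelial and Kupffer cells on arrays 1 to 3 (limma, adjusted p up to 0.0267). Their differences there were -2.84 and -2.38, -2.93 and -2.38, and -4.27 and -2.67. The mean level over the list was 10.61 to 10.75 in control Ito 1 to 3 and 11.17, 10.01 and 10.97 in TME Ito 1 to 3, so the groups overlapped. The part of hepatocyte RNA in the acute phase rise was not tested.

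Chemokines and cytokines moved in both directions, 4 of 45 up and 6 down beside 4.17 and 3.92% of all probes, and 2 up and 6 down without array 2. *Ccl12* and *Ccl8*, ligands that attract monocytes, lie side by side on chromosome 11. *Ccl12* was at 8.52, 8.25 and 8.53 in control and 13.87, 11.91 and 13.70 in TME, a 26.4-fold rise (4.72 ± 0.99, adjusted p = 0.00638). *Ccl8* rose 18.6-fold (adjusted p = 0.0278). *Cxcl14* was at 6.60, 7.98 and 6.25 in control and 9.05, 12.32 and 8.98 in TME. The falls were in *Cxcl2*, *Cxcl3*, *Ccl22* and all 3 colony-stimulating factor genes of the list, the growth factors of macrophages and granulocytes. *Csf2*, the granulocyte-macrophage factor, was at 11.97, 11.91 and 12.00 in control and 8.75, 8.55 and 8.57 in TME, 10.1-fold lower (adjusted p = 0.0148). *Csf1* fell by 1.51 and *Csf3* by 1.79. The other probes of *Csf1* differed by -0.70 and -0.82 and were not called (adjusted p = 0.178 and 0.127). *Cxcl2*, a ligand that attracts neutrophils, was at 15.50, 15.39 and 15.37 in control and at 13.13, 9.65 and 12.88 in TME. TME Ito 2 was thus lowest for *Cxcl2* by over 3 log2 units.

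Of 36 Kupffer and macrophage genes, 4 rose and 1 fell on arrays 1 to 3, beside 4.17 and 3.92% of all probes. The list's median was 0.33, and -1.13 on array 4. Among the risers were *Ly6c1* (2.76-fold, adjusted p = 0.0350), *Chi3l3* and *Ccr2*, genes associated with recruited monocytes and alternatively activated macrophages. A second probe of *Ly6c1* rose by 2.60 on the log2 scale (adjusted p = 0.0157), against 1.47 for the probe given. *Chi3l3* was at 3.80, 2.95 and 2.14 in control and 7.26, 7.20 and 6.96 in TME. *Cd14*, the co-receptor for bacterial lipopolysaccharide, fell, from 14.63 to 14.66 in control to 13.37 to 13.47 in TME. The mean level over the list was 11.42 to 11.51 in control Ito 1 to 3 and 12.61, 10.82 and 12.60 in TME Ito 1 to 3, so TME Ito 2 lay below the control channels and TME Ito 1 and 3 above them.

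Of 37 sinusoidal endothelial genes, 11 fell and 0 rose, against 3.92% of all probes that fell, and 8 fell without array 2. The median difference was -1.08, and 0.57 on array 4. *Sele*, the adhesion molecule E-selectin of activated endothelium, was at 9.51, 9.52 and 9.52 in control and 6.24, 5.39 and 6.45 in TME, and at 6.30 and 9.63 in the channels of array 4 labelled control and TME. It was 11.2-fold lower (adjusted p = 5.50e-07). *Ehd3*, a membrane trafficking protein, was 3.08-fold lower, *Rspo3*, a secreted enhancer of Wnt signalling, 2.71-fold, and *Cdh5*, the cadherin of endothelial junctions, 2.51-fold. All 4 remained called with any of the 3 arrays left out. *Lyve1*, a hyaluronan receptor, fell to 11.14, 8.58 and 11.07 from 12.70 to 12.85, and *Wnt2*, a sinusoidal Wnt ligand, was well above background in 3 control channels and no TME channel. *Stab2*, a scavenger receptor of the same endothelium, differed by 0.02 (adjusted p = 0.999). The mean level over the list was 10.37 to 10.45 in control Ito 1 to 3 and 9.62, 8.85 and 9.77 in TME Ito 1 to 3.

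Immediate early genes are switched on within minutes of a stimulus. Of 37 immediate early and stress genes, 12 fell and 0 rose, beside 3.92 and 4.17% of all probes. The median difference was -0.70, and 0.81 on array 4. Without array 2, 9 fell. *Egr1*, a zinc finger transcription factor, was at 12.96, 12.98 and 12.83 in control and 8.80, 11.86 and 8.93 in TME, 8.33-fold lower (adjusted p = 0.00303), and at 8.62 and 13.02 in the channels of array 4 labelled control and TME. *Cyr61*, a matricellular protein induced in the same way, was at 12.22 to 12.39 in control and at 8.81, 12.06 and 8.97 in TME. For both genes TME Ito 2 was nearer to control than TME Ito 1 and 3. *Ier3* fell by 1.18, *Nr4a1* by 1.25, *Fosb* by 1.90 and *Myc* by 0.88. Of the same list, *Txnrd1*, a thioredoxin reductase, fell by 1.11 (adjusted p = 0.00115), *Gclm*, a subunit of the enzyme of glutathione synthesis, by 1.10 (0.00230), *Srxn1*, sulfiredoxin, by 1.06 (0.0123) and *Hmox1*, heme oxygenase, by 0.70 (0.0303). Of 29 hypoxia and glycolysis genes, 5 fell and 1 rose, and 0 rose and 1 fell without array 2. *Egln3*, the prolyl hydroxylase, was 5.17-fold lower and *Bnip3* fell by 1.43, while *Tpi1* rose by 0.91. For the hexokinase *Hk1*, which fell by 0.62, 2 other bright probes differed by 1.03 and 0.96, so its direction depends on the probe.

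**Figure D3:**
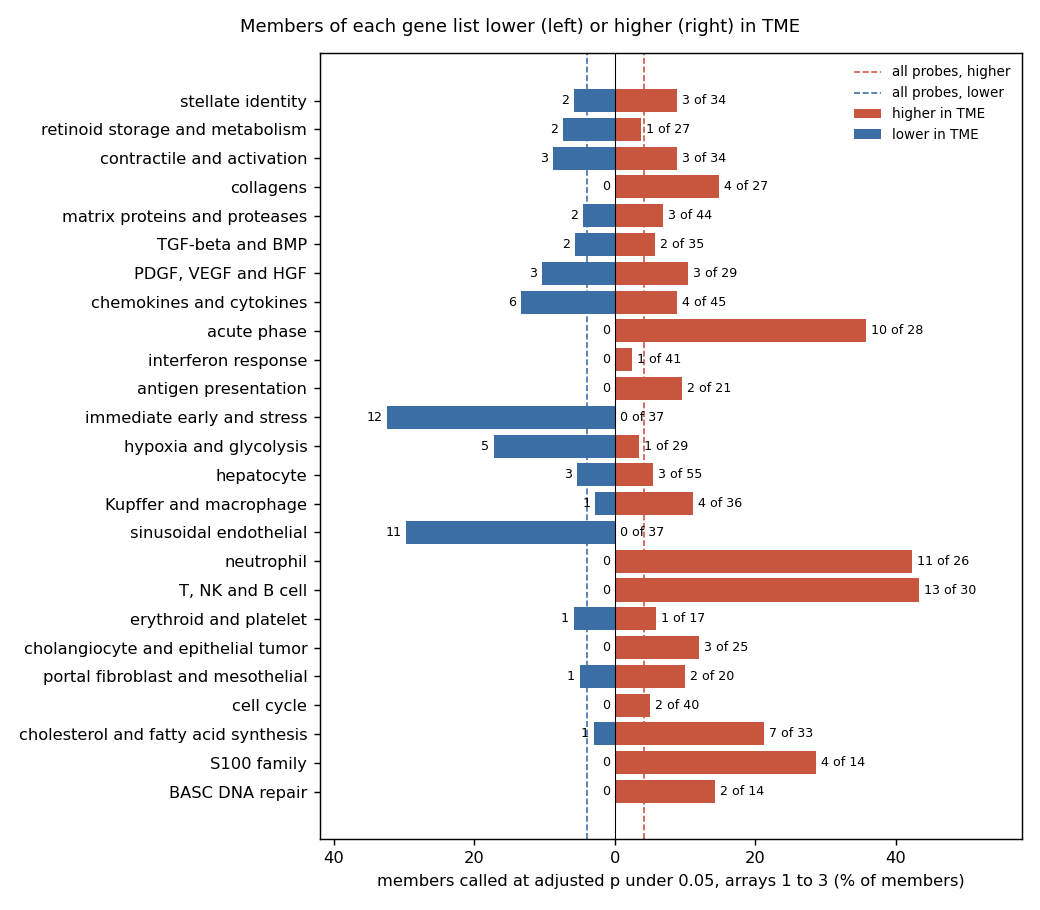
Share of the members of each of 25 gene lists (percent, horizontal axis) that were higher (red, right) or lower (blue, left) in TME at an adjusted p under 0.05 on arrays 1 to 3, with the counts beside the bars. Dashed lines mark the shares over all probes, 4.17% higher and 3.92% lower. The 3 longest bars on the right are those of the T, NK and B cell, neutrophil and acute phase lists, and the 2 longest on the left those of the immediate early and stress and the sinusoidal endothelial lists.

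Of 34 stellate identity genes, 3 rose and 2 fell on arrays 1 to 3, beside 4.17 and 3.92% of all probes, with a median of 0.25. Without array 2, 2 rose and 4 fell. *Ngfr*, the low-affinity nerve growth factor receptor of quiescent Ito cells, was at 8.02, 7.98 and 7.96 in control and 5.86, 6.62 and 6.0 in TME, and at 6.0 and 7.97 in the channels of array 4 labelled control and TME. It was 3.55-fold lower (adjusted p = 0.000184) and remained called with any of the 3 arrays left out. The fall of *Ngfr* was not particular to this fraction. Its log2 difference was -1.83 here and -1.83 in endothelial cells (limma, adjusted p = 0.000604), and -0.8 in Kupffer cells (0.0835). *Reln* was at 5.97, 5.87 and 5.86 in control and 4.21, 3.59 and 4.98 in TME, a fall by 1.64 (adjusted p = 0.0491, and 0.0791 with the array as a block). *Lrat* was at 4.03, 3.78 and 4.60 against 3.19, 2.23 and 4.27 (adjusted p = 0.265), and was close to background throughout. *Cygb*, cytoglobin, an oxygen-binding protein of Ito cells, rose 4.82-fold (adjusted p = 0.0363, and 0.0573 with the array as a block). Its difference was 1.62, 3.71 and 1.48 on arrays 1, 2 and 3. The call was lost whichever of them was left out (limma, adjusted p up to 0.163). *Adamtsl2*, a matrix protein that binds latent TGF-beta, and the transcription factor *Lhx2* rose by 1.5 and 0.84.

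Of 27 genes of retinoid storage and metabolism, 1 rose and 2 fell, beside 4.17 and 3.92% of all probes, and 0 rose and 1 fell without array 2. *Plin2*, the coat protein of lipid droplets, was at 16.08 to 16.25 in control and 16.89 to 17.21 in TME, 1.83-fold higher (adjusted p = 0.0131). *Bcmo1*, which cleaves beta-carotene to retinal, was 2.62-fold lower (adjusted p = 0.00396), and *Crabp2*, a carrier of retinoic acid, 1.80-fold lower (adjusted p = 0.0391).

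TME Ito 2 was the highest channel for several contractile genes, and it stood apart over all probes too. Of 34 contractile and activation genes, 3 rose and 3 fell, beside 4.17 and 3.92% of all probes, and smooth muscle actin was not among them. *Acta2*, which encodes it, was at 5.66, 8.50 and 5.71 in control and 6.53, 12.49 and 6.46 in TME, with an adjusted p of 0.426. *Tagln*, the actin-binding protein transgelin, was at 13.43, 13.76 and 13.60 in control and 10.09, 15.69 and 10.22 in TME, so it was lower in TME Ito 1 and 3 and higher in TME Ito 2. *Des* was at 5.64, 5.74 and 5.31 in control and 5.84, 9.89 and 6.0 in TME. *Acta2*, *Tagln*, *Myl9*, *Col1a1*, *Pdgfrb* and *Ctgf* were named after their values were seen. For *Myl9*, the myosin light chain, TME Ito 2 was at 12.01 and the other 7 channels lay between 6.69 and 7.99. Of the list's 27 genes detected in all 4 TME channels, TME Ito 2 was the highest of the 8 channels for 14 and the lowest for 6. Of 28 such genes of the stellate identity list, it was the highest for 14 and the lowest for 10. Over the 21364 probes detected in all TME channels it was the highest for 36.8% and the lowest for 32.7%.

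Among the 6 genes of this list that were called were *Timp1*, *S100a6* and *Agtr1a* (higher) and *Cyr61* and *Ednrb* (lower). *Timp1*, the inhibitor of matrix metalloproteinases that activated Ito cells secrete, was at 10.81, 11.06 and 10.63 in control and 13.05, 14.65 and 12.82 in TME. It rose 6.37-fold (2.67 ± 0.36, adjusted p = 0.000185) and remained called with any of the 3 arrays left out. *Ednrb*, an endothelin receptor, fell by 1.86.

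**Figure D4:**
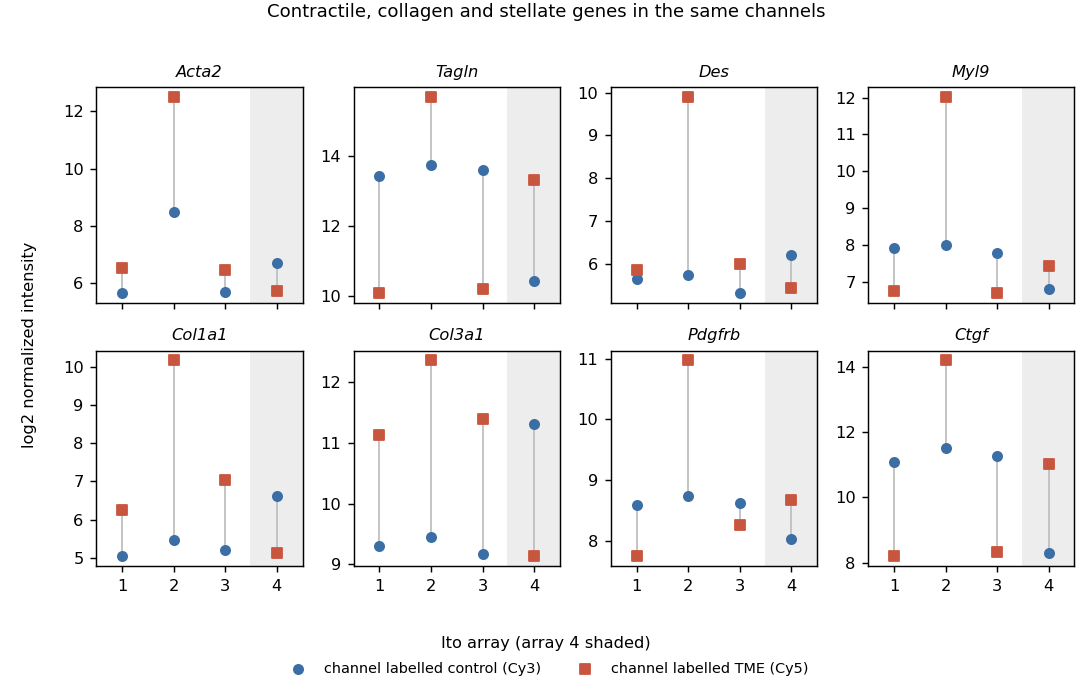
Level of 8 contractile, collagen and stellate genes (log2 normalized intensity, vertical axes, which do not start at 0) in the channels of the 4 Ito arrays, with array 4 shaded. The panels were picked after the values were seen, as genes for which TME Ito 2 is the highest of the 8 channels, at 12.49 for Acta2 and 15.69 for Tagln, and for other members of the lists it was the lowest.

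Of 27 collagen and collagen-processing genes, 4 rose and 0 fell on arrays 1 to 3, beside 4.17 and 3.92% of all probes, and none was called on arrays 1 and 3 alone. The median was 0.21, and 0.13 after normexp with quantile, 0.14 with loess and 0.34 with 75th percentile scaling. *Col3a1*, the chain of type III collagen, was at 9.30, 9.45 and 9.17 in control and 11.13, 12.36 and 11.39 in TME, and at 11.32 and 9.13 in the channels of array 4 labelled control and TME (4.99-fold, adjusted p = 0.0272, and 0.0512 with the array as a block). *Col1a2* was at 10.02 to 10.27 in control and 10.92, 13.70 and 11.25 in TME (3.50-fold, adjusted p = 0.0238), and *Col6a1* and the procollagen protease *Bmp1* rose 3.11-fold and 2.58-fold. Of the other probes of *Bmp1*, 1 rose by 1.73 (adjusted p = 0.0153) and 1 differed by 0.59 (0.181). *Col1a1*, the partner chain of *Col1a2* in type I collagen, was at 5.04, 5.48 and 5.20 in control and 6.26, 10.17 and 7.03 in TME without passing the test (adjusted p = 0.144). For the collagen list too, TME Ito 2 was the highest of the 8 channels for 14 of 20 genes detected in all TME channels. In the basement membrane pair *Col4a1* and *Col4a2*, the differences were -0.56 and -0.50 (adjusted p = 0.517 and 0.351).

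In the next 3 lists the counts stand beside the same 4.17 and 3.92% of all probes. Of 44 matrix proteins and proteases, 3 rose and 2 fell (2 and 1 without array 2), and *Lama4*, a laminin chain of vascular basement membranes, was at 11.38, 11.31 and 11.17 in control and 8.85, 5.50 and 8.98 in TME (11.4-fold lower, adjusted p = 0.00163). *Adamts4*, an aggrecanase, fell by 2.67, with differences of -1.96, -4.55 and -1.52 on arrays 1, 2 and 3. Its call was lost whichever of these arrays was left out (limma, adjusted p up to 0.103). Of 35 genes of TGF-beta and BMP signalling, 2 rose and 2 fell (1 and 1 without array 2). *Grem1*, a secreted antagonist of BMPs, was at 6.69, 6.52 and 6.70 in control and 9.32, 10.61 and 9.50 in TME, a 9.0-fold rise (3.17 ± 0.46, adjusted p = 0.000352) that remained called with any of the 3 arrays left out. In endothelial cells *Grem1* rose by 3.22 (limma, adjusted p = 0.00112), and in Kupffer cells it differed by 1.14 (0.208). *Bmp6*, the endothelial BMP ligand, was 3.02-fold lower. Of the latent TGF-beta binding proteins, *Ltbp1* rose by 1.69 and *Ltbp2* fell by 2.03. Of 29 PDGF, VEGF and HGF pathway genes, 3 rose and 3 fell (1 and 0 without array 2), among them the fibroblast growth factors *Fgf1* (1.48) and *Fgf2* (1.23) upward, and the VEGF receptor *Flt1* (-1.41) and the vessel-destabilizing ligand *Angpt2* (-1.71) downward. A second probe of *Flt1* differed by -0.83 (adjusted p = 0.575).

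The counts of the lists that follow also stand beside 4.17% of all probes that rose and 3.92% that fell. Of 41 interferon response genes, 1 rose, *Psmb9*, an immunoproteasome subunit (1.00, adjusted p = 0.0186), which with *H2-DMa* was also 1 of 2 risers among 21 antigen presentation genes, and neither list had a call without array 2. Of 33 genes of cholesterol and fatty acid synthesis, 7 rose and 1 fell on arrays 1 to 3, and 2 rose and 0 fell without array 2. *Scd2*, a stearoyl-CoA desaturase, was at 6.40, 6.21 and 6.17 in control and 8.27, 8.79 and 8.50 in TME, a 4.79-fold rise (adjusted p = 4.07e-06) that remained called with any of the 3 arrays left out, and *Sqle*, squalene epoxidase, rose 2.28-fold. Of 40 cell cycle genes, 2 rose (1 without array 2), the topoisomerase *Top2a* and the transcription factor *E2f1*. Of 25 cholangiocyte and epithelial tumor genes, 3 rose and 0 fell, of which *Lypd8* was not well above background on any channel. *Krt23*, a keratin, rose by 1.94 and *Ereg*, the ligand epiregulin, by 1.62. Of 20 portal fibroblast and mesothelial genes, 2 rose and 1 fell, and of 17 erythroid and platelet genes, 1 rose and 1 fell (2 and 0 without array 2). Members of marker lists of other cell types were thus called in the comparison, and their part in the results for stellate genes was not tested.

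A set of probes was higher in the TME channel on all 4 arrays, including array 4. Of the 156 probes called higher there, 2 ran opposite on array 4 and 120 were not well above background on any control channel. Only 12 of the 156 were bright, and the 6 with the largest rise were the probes of *Sspn* (sarcospan, a protein of the dystrophin complex), the non-coding RNA A030009H04Rik, a transcript known by an Ensembl number, and 3 probes of long intergenic non-coding RNA (lincRNA). *Sspn* was at 4.70, 4.40, 3.94 and 4.94 in the 4 control channels and 5.66, 7.19, 5.58 and 5.80 in the TME channels (1.56 ± 0.33, adjusted p = 0.0269). A030009H04Rik was at 5.75, 6.14, 5.51 and 6.13 in control and 7.34, 7.57, 7.12 and 7.57 in TME (1.52 ± 0.28, adjusted p = 0.00655). In both the 4 channels of each label did not overlap, which follows largely from their choice as the largest rises on all 4 arrays.

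The non-coding transcripts of this set are known mainly by their probes, so the probes are shown as the array file gives them, 60 bases each, with mm9 coordinates. The lincRNA probes lie at chr2:157241868-157241927, within the region from 157236070 to 157249445 (forward), at chr19:38397570-38397629, within 38392796 to 38398771 (forward), and at chr1:45826914-45826973, within 45800000 to 45834825 (reverse). The probe of A030009H04Rik lies at chr11:69155694-69155753. That of 4921511C20Rik, a non-coding transcript that was not well above background on any control channel, lies at chrX:123930337-123930396.
lincRNA, chromosome 2: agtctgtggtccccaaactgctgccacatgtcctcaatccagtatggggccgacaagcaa
lincRNA, chromosome 19: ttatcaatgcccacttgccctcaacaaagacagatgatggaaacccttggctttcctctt
lincRNA, chromosome 1: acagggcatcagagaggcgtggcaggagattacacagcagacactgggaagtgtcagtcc
A030009H04Rik: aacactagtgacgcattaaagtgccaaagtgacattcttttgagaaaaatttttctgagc
4921511C20Rik: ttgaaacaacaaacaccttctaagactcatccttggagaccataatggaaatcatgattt
Their GC content was 55, 45, 56.7, 35 and 35% in this order. The probe on chromosome 19 was at 4.70, 4.80, 4.57 and 5.18 in control and 6.15, 6.77, 6.0 and 6.66 in TME (1.59 ± 0.26, adjusted p = 0.00152). That on chromosome 2 rose by 1.72 and that on chromosome 1 by 1.54 on all 4 arrays.

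Probes that were well above background in all 4 TME and no control channel numbered 32. Of these, 4921511C20Rik was at 2.18, 1.88, 2.18 and 2.00 in control and 6.86, 6.79, 6.69 and 7.12 in TME, and *Vmn1r41*, a vomeronasal receptor of the olfactory system, was at 2.12, 3.05, 2.12 and 2.03 in control and 7.07, 7.03, 6.71 and 7.33 in TME. Both were chosen for this pattern, so no p is given for them. Since the control side is background, folds are given as bounds, at least 2.46-fold for 4921511C20Rik and at least 2.39-fold for *Vmn1r41*. For such a bound the TME mean was divided by the dimmest signal that still counted as well above background in the control channels, or by the probe's own signal where that was higher, after loess and Aquantile normalization, and it is open to dye bias. *Sh3gl2*, a gene of synaptic vesicle endocytosis, was at least 1.79-fold higher. An unnamed probe at chr19:10759989-10760048 (mm9) was at least 1.51-fold higher.

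*Brca1*, the DNA repair gene, tested as a member of the BASC list, had the same pattern. It was at 3.89, 2.40, 2.15 and 1.93 in the 4 control channels, not well above background on any of them, and at 7.08, 7.02, 6.70 and 7.36 in TME, well above background on all. It was at least 2.54-fold higher, with an adjusted p of 0.000118 on all 4 arrays and 0.00300 on arrays 1 to 3. The last call was lost without array 2 (adjusted p = 0.0924) and without array 3 (0.0823). The study had picked *Brca1* from these same arrays as raised in every TME cell type. The p values are therefore no independent test of *Brca1*. On array 4, where the leading genes ran the other way, *Brca1* was higher in the channel labelled TME, as on arrays 1 to 3. Of 14 genes of the BASC list, the BRCA1-associated genome surveillance complex, *Rfc4* also rose on arrays 1 to 3 (1.29, adjusted p = 0.0310, and 0.052 with the array as a block), at -1.06 on array 4. A second probe of *Rfc4* differed by 0.89 (adjusted p = 0.233).

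Of the 32 probes, 17 showed the same pattern of 4 Cy5 and 0 Cy3 channels in endothelial cells, 21 in Kupffer cells and 7 in the tumor pair, where Cy5 marked primary tumors and Cy3 liver metastases. The reverse pattern, 0 TME and 4 control channels, was seen for 230 probes of the fraction labelled Ito, and 0, 6 and 5 of these showed it in the same 3 pairs. For these probes, as for all others, the dye and the condition cannot be told apart.

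**Figure D5:**
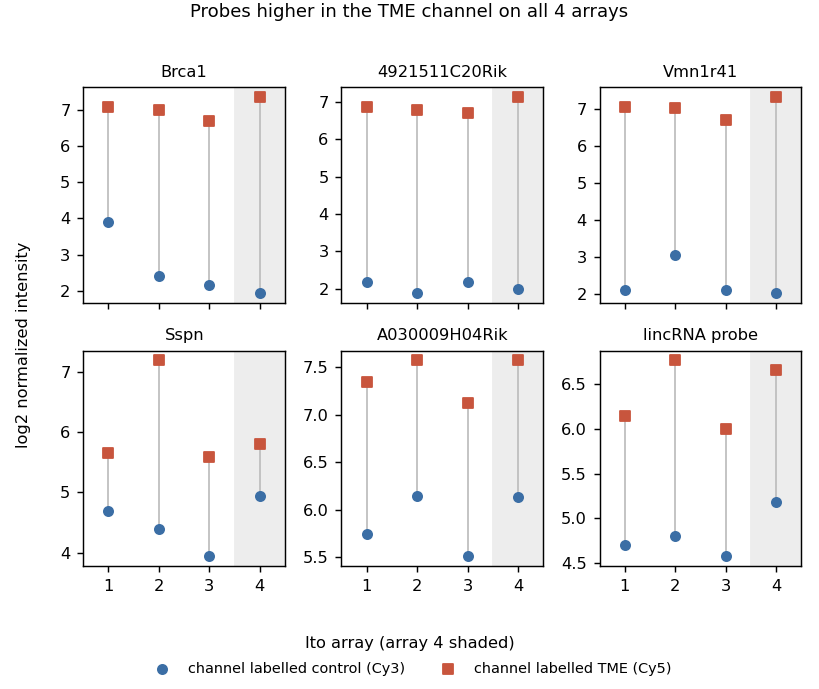
Level of 6 probes (log2 normalized intensity, vertical axes, which do not start at 0) in the channels of the 4 Ito arrays, with array 4 shaded. In every panel the channel labelled TME lies above the channel labelled control on all 4 arrays. For Brca1, 4921511C20Rik and Vmn1r41 the control channels are not well above background.

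Whether a change differed from that in the other liver fractions was tested as a contrast of the fit to arrays 1 to 3. Each change compares channels of the same arrays, but the Kupffer arrays lay on another slide than the Ito and endothelial arrays. Against endothelial cells, the signed difference (TME minus control) was higher in the fraction labelled Ito for 333 probes (0.598%) and lower for 273 (0.490%). Against Kupffer cells the counts were 36 (0.0647%) and 24 (0.0431%). At an adjusted p under 0.001 and at least 4-fold they were 15 (0.0269%) and 23 (0.0413%) against endothelial cells, and 2 (0.00359%) and 0 against Kupffer cells. *Sele* differed from both. It fell by 3.49 in the fraction labelled Ito, against a difference of 0.73 ± 0.27 SE in endothelial (adjusted p of the contrast = 2.28e-05) and -0.32 ± 0.27 in Kupffer cells (adjusted p = 0.00114). *Calhm2*, a calcium homeostasis modulator, was at 6.02, 6.01 and 6.33 in control and 7.87, 8.15 and 7.73 in TME, a rise of 1.79 against -0.02 in endothelial and 0.31 in Kupffer cells, and it too differed from both.

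*Odc1*, the first enzyme of polyamine synthesis, fell by 1.64 and rose by 1.42 in endothelial cells. *Tlr12*, an endosomal receptor for protozoan profilin, rose by 0.76 and fell by 1.79 there. *Tma16*, a ribosome-associated protein, fell by 1.09 (1.69 on a second probe, adjusted p = 0.000171) and rose by 0.82 in endothelial and 0.78 in Kupffer cells. These 3 changed in opposite directions, with each change past the threshold. *Pcdh17*, a protocadherin, rose by 2.96 in endothelial cells, and in the fraction labelled Ito its difference was -0.75 (adjusted p = 0.0629). *Dusp22*, a phosphatase, and *Slc25a24*, a mitochondrial carrier, rose by 1.11 and 1.22, and the contrast with Kupffer cells gave an adjusted p of 0.00711 and 0.00899. A second probe of *Dusp22* differed by 0.82 (adjusted p = 0.0637). Over bright probes, the differences of Ito arrays 1 and 3 correlated at 0.66 and 0.68 with the mean Kupffer difference of arrays 1 to 3 and at 0.30 and 0.30 with the mean endothelial difference of arrays 1 to 3, and those of array 2 at 0.03 and 0.05. With the means over all 4 arrays of those fractions, the values were 0.60 and 0.62 for Kupffer and 0.27 and 0.28 for endothelial cells. Those of Ito array 2 were then -0.08 and 0.11. When array 4 was included, the Kupffer difference of *S100a9* went from 2.75 to 1.30 and that of *Gzma* from 2.97 to 1.28. That of *Brca1* did not shrink (3.75 and 3.87). Whether Kupffer array 4 also ran opposite was not tested.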

How the data were processed

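RNA of 32 samples was hybridised on 16 two-colour Agilent mouse arrays on 2 slides, and the 8 samples labelled Ito shared 4 arrays. The deposited scanner files hold spot intensity values made by the authors with Agilent Feature Extraction 10.7.3.1, which subtracts background and corrects dye bias within each array. The deposited series table holds intensity values of the same arrays quantile normalized by the authors, as the study's methods state and its values bear out, and it was used as an alternative. The scanner signal was preferred because it comes with flags per spot.

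From the processed signal, control spots and outlier flags were left out, spots of 1 probe averaged, log2 taken and the 32 channels quantile normalized. Differences were tested with limma 3.58.1 in R 4.3.3 (lmFit and eBayes, all 8 groups in the fit, Benjamini-Hochberg over 55681 probes), on all 4 arrays and on arrays 1 to 3. The limit was an adjusted p of 0.05. Whether control and TME of 1 array pair was checked by the correlation of their deviations from the group means over bright probes, which was 0.21, 0.16 and 0.25 on arrays 1 to 3 and -0.34, 0.23, -0.09 and -0.68 on all 4. The array was therefore also fitted as a block. On simulated data with 200 of 55596 probes changed, 92% of changes of 4 log2 units and 70% of changes of 2 were recovered for arrays 1 to 3, and 94% and 80% for all 4 arrays. The values for all 4 arrays do not carry over to these samples. Here array 4 ran opposite, and none of the leading genes was called on all 4 arrays.

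The genes named were the markers, the 15 largest rises and 15 largest falls among bright called probes of arrays 1 to 3, the 6 largest on all 4 arrays, up to 4 bright members of each list with the smallest p, 5 probes for each contrast between fractions and 4 probes detected in TME channels only. Other genes were named after their values were seen, and a few results under the rule are not reported here. The samples compared, the gene lists and the rule were chosen with earlier results of these data known. For a gene with several probes in a list, 1 probe was used. Symbols and promoters came from RefSeq tables, in which 31381 probes had a symbol. Alternatives were the deposited table, normexp with an offset of 50, loess, 75th percentile scaling, a filter on dim probes, the array as a block, fewer groups in the fit, the methods' t-test, a stricter threshold and leaving out each array.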

Additional observations from a re-analysis of the deposited data

Results flagged for a closer look

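For each of 130 named probes, the 4 control and the 4 TME channels were searched for a channel far from the other 3 (Dixon's test), which made 260 groups, of which chance picks out about 1 in 20. That rate does not apply to probes that were chosen for their change on arrays 1 to 3. In 78 groups the channel that stood apart was the one labelled control on array 4, and in 12 it was the one labelled TME on array 4. What sets array 4 apart was not tested. Levels below are log2 normalized intensities.

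The channel labelled control on array 4 lay above the other control channels for *Gzma* (13.07), *Ccl12* (13.90), *S100a9* (13.22), *Ccl8* (14.49), *Sirpb1a* (11.24), *Sirpb1b* (11.97), *Fgl1* (14.52) and *Spn* (8.01). It was also the highest for *S100a8* (12.05), *Adamtsl2* (8.07), *Plin2* (17.25), *Rarres2* (12.39), *S100a6* (12.22) and *Agtr1a* (8.26). So it was for *Bmp1* (10.72), *Col3a1* (11.32), *Col6a1* (8.53), *Grem1* (9.23), *Ltbp1* (9.38), *Itih3* (14.12), *Orm2* (12.76) and *Hpx* (16.32). The same held for *Itih4* (15.01), *Psmb9* (15.32), *Irf1* (16.51), *Tpi1* (13.44), *Hnf4a* (9.35), *C1qb* (14.12), *Ly6g* (8.27) and *Nkg7* (11.03). Further genes were *Hbb-b1* (15.36), *Alas2* (10.08), *Ereg* (12.43), *Areg* (7.36), *Thy1* (9.96), *Gas6* (10.49), *E2f1* (7.79) and *Scd2* (8.45). To these belonged *Scd1* (8.88), *Rfc5* (9.48), *Rfc2* (10.94), *Tlr12* (7.53), *Dusp22* (9.31) and *Slc25a24* (10.10).

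It lay below the other control channels for *Reln* (4.54), *Cxcl2* (13.18), *Lama4* (8.85), *Sele* (6.30), *Cd207* (7.06), *Car3* (5.67), *Lce1d* (4.73) and *Csf2* (8.85). The level was also lowest there for *Esm1* (11.45), *Gm7120* (8.45), *Egr1* (8.62), *Cyp1a1* (11.47), *Adamts4* (12.38), *Niacr1* (10.18), *Lyve1* (10.93) and *Mup21* (7.81). So it was for *Ngfr* (6.0), *Bcmo1* (8.65), *Cyr61* (8.87), *Bmp6* (10.46), *Ltbp2* (6.85), *Flt1* (10.01), *Angpt2* (12.26) and *Csf1* (13.43). The same direction held for *Txnrd1* (13.86), *Bnip3* (12.54), *Mup3* (11.77), *Mup20* (12.91), *Cd14* (13.58), *Ehd3* (10.20), *Rspo3* (11.72) and *Car2* (11.20). Further genes below were *Odc1* (14.44) and *Tma16* (11.80).

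Among the TME channels, the one labelled TME on array 4 lay above the others for *Csf2* (11.80), *Gm7120* (11.27), the chromosome 1 lincRNA (6.50), *Ier3* (14.27) and *Cd14* (14.40). It lay below the others for *Itih3* (10.93), *Hpx* (13.38), *Itih4* (12.40), *Igtp* (16.81), *Prf1* (7.48), *Dusp22* (7.98) and *Slc25a24* (8.51). TME Ito 2 stood apart for *Des* (9.89) and *Sspn* (7.19), above the other TME channels in both. Control Ito 2 stood apart for *Vmn1r41* (3.05), where no control channel was well above background.

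Changes that differed between liver fractions were taken from contrasts of the limma fit to arrays 1 to 3. Against endothelial cells 606 probes differed at an adjusted p under 0.05, and against Kupffer cells 60. The change in the fraction labelled Ito minus that in endothelial cells was 2.56 for *Tlr12*, -4.22 for *Sele*, -3.71 for *Pcdh17*, 1.82 for *Calhm2* and -3.06 for *Odc1*, in log2 units. Minus that in Kupffer cells it was -1.88 for *Tma16*, 1.48 for *Calhm2*, -3.17 for *Sele*, 1.48 for *Dusp22* and 1.11 for *Slc25a24*.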

How the results depend on the processing

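The leading genes of arrays 1 to 3 rest on which arrays are used. On all 4 arrays none of the 30 leading genes was called, and the only changes of sign among the 132 named probes were those of *C1qb*, whose difference on all 4 arrays became -0.04 without replicate 1 and -0.02 without replicate 3, and 1.16 without replicate 4. Of 107 named genes called on arrays 1 to 3, 33 were called with each of the 3 arrays left out, 102 with the array as a replicate block and 67 with only the Ito groups in the fit. Depth does not apply to arrays. Signal over background limits the dim probes, and 22445 probes were not well above background on any of the 8 channels.

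Counts on all 4 arrays, higher and lower, were 156 and 11. They became 87 and 2 with normexp and quantile normalization, 97 and 5 with normexp, loess and Aquantile, 62 and 4 after a filter on dim probes, 292 and 25 with the replicate block, and 68 and 13 with only the Ito groups. The methods' t-test gave 1233 and 60 after Benjamini-Hochberg and 62 and 0 at the thresholds of the methods, unadjusted. An adjusted p under 0.001 with a change of at least 4-fold gave 53 and 0. Turning the sign of array 4, chosen after seeing the data, gave 2437 and 2690. Leaving out 1 array gave 84 to 2321 higher and 3 to 2182 lower, the largest counts being those without array 4.

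Counts on arrays 1 to 3 were 2321 and 2182. They became 1308 and 1556 with 75th percentile scaling, which moved the median over all probes by 0.11, 1361 and 1406 with only the Ito groups, 164 and 63 under the stricter threshold, 2702 and 1246 by the methods' t-test after Benjamini-Hochberg, and 131 and 122 at its unadjusted thresholds. Leaving out 1 array gave 775 to 1301 higher and 778 to 907 lower. The share of calls that were higher was 51.5% in the reported fit, 68.4% by the t-test after Benjamini-Hochberg and 72.2% under the stricter threshold. The replicate block gave 2384 and 2023. The deposited table gave 150 and 11 on all 4 arrays and 2195 and 2167 on arrays 1 to 3.

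The count of probes whose change differed from that in endothelial cells, 606, became 949 with loess and Aquantile, 334 with 75th percentile scaling, 346 with the replicate block, 38 under the stricter threshold and 109 to 268 with 1 array left out. Against Kupffer cells 60 became 150 with normexp and quantile, 131 with loess and Aquantile, 17 with 75th percentile scaling, 23 with the replicate block, 2 under the stricter threshold and 4 to 41 with 1 array left out. The cause of these shifts was not tested.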
